A study of Mus musculus with 18 samples.

Results

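The genes described here encode lysosomal hydrolases and their helper proteins, proteins of the lysosomal membrane, the transcription factor Tfeb and the subunits of the vacuolar proton pump (V-ATPase). They were chosen by name, as 32 listed symbols and every protein-coding gene whose symbol begins with Atp6v among the 13759 genes measured in metastasis-associated macrophages (MAMs). The 32 symbols were all present and 16 Atp6v genes were found, which gave 48 members. Another 6 protein-coding Atp6v genes, Atp6v0a4, Atp6v0e2, Atp6v1b1, Atp6v1c2, Atp6v1e2 and Atp6v1g3, were not analysed here. All 48 passed the filter on low counts, as did all 13759 genes.

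The MAMs came from liver metastases (LM) of female mice whose tumors were grown from MC38, a mouse colon adenocarcinoma line. Mice were 8 to 10 weeks old, and cells were taken 20 days after the injection of tumor cells. MAMs were sorted as lineage-negative CD45+CD11b+ cells with high or low F4/80, a surface antigen of macrophages encoded by Adgre1, and 3 libraries of each were sequenced after poly(A) selection. Type 1 lymphocytes were sorted from LM or from metastasis-free liver (MFL) parenchyma of such mice, as NKp46+ cells pooled from 6 to 8 samples, and 3 total RNA libraries of each population were sequenced. In MFL these were NK cells, with CD49b but not CD49a on the surface, and ILC1, with CD49a but not CD49b. In LM they were NK cells with CD49b alone (LM CD49a- NK cells) and cells with both antigens, called LM CD49a+ NK cells, although their sample titles use the name ILC1. All groups were from mice with MC38 metastases and none carried a deletion or a drug treatment in the labels. Whether MAM libraries were pools of animals is not given in the sources used here, so their p-values measure the spread between these libraries.

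Lysosomes degrade material that macrophages take up by phagocytosis or receive by autophagy. The V-ATPase acidifies them: its V1 sector hydrolyses ATP in the cytosol and drives the V0 sector, which carries protons through the membrane, and most hydrolases need the low pH. Tfeb and its relatives bind short E-box sequences near the start of many lysosomal genes and raise their transcription when they enter the nucleus.

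Total counts were between 21278959 and 32267015 per MAM library and between 8795721 and 14386834 per lymphocyte library. The sort was visible in Adgre1, whose level was 901, 806 and 1167 CPM (counts scaled to a common library total) in the F4/80high libraries and 124, 160.4 and 153 CPM in the F4/80low libraries. Markers of other cells moved with the groups. Of 10 macrophage markers, 8 were higher in F4/80high MAMs and none was lower, and of 9 classical monocyte markers, 8 were lower and 1, F13a1, was higher. The macrophage markers summed to 22455 to 31076 CPM in F4/80high and 7202 to 9051 CPM in F4/80low libraries, and the monocyte markers to 4116 to 5671.5 CPM and 7196 to 10217.5 CPM. Of 8 dendritic cell markers, 7 were lower in F4/80high MAMs, and the sum of the 8 was 22.2 to 31.2 CPM in these libraries against 588 to 944 CPM in the F4/80low libraries. Neutrophil markers summed to 74.0 to 105 CPM against 99.1 to 205 CPM, with 7 of 8 measured markers lower in F4/80high MAMs. Of 7 tumor epithelium markers, only 3 were measured, Epcam, Cdh1 and Krt7. All 3 were lower in F4/80high MAMs, with sums of 8.56 to 12.1 CPM against 199 to 283 CPM. The others, among them Krt8 and Krt18, were not measured, so these sums do not establish the presence of tumor cells. Of 5 Kupffer cell markers, 3 were higher and 1 was lower, with sums of 6.68 to 15.8 CPM against 9.10 to 10.9 CPM. Of 6 endothelial and stromal markers, 3 were higher and 2 lower, with sums of 148 to 211 CPM against 47.4 to 126 CPM. The part of these cells in the results below was not tested. In sorted populations, a lower level can come from fewer cells of a type or from less RNA per cell, and the libraries do not tell these apart.

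F4/80high MAMs had more transcript of most lysosomal hydrolases and membrane proteins than F4/80low MAMs, and less of several V-ATPase subunits, of Tfeb and of 3 proteins that handle lipids. Of the 48 members, 23 were called higher in F4/80high MAMs, 11 were called lower and 14 were not called. A gene was called at an adjusted p under 0.1 (edgeR's quasi-likelihood test, Benjamini-Hochberg adjusted over all 13759 genes). Among all genes 54.9% were called, 27.8% higher and 27.1% lower, so a member called in either direction was no rarity in this comparison. The median log2 fold change of F4/80high over F4/80low was 0.19 over the members and 0.01 over all genes. The 32 listed symbols had 21 higher and 5 lower (81.25% called), with a median of 0.40. The 16 Atp6v genes had 2 higher and 6 lower, with a median of -0.08, and their 50% called was below the share of all genes. Summed, the 32 listed symbols overlapped between the groups, at 16911, 14515 and 17277 CPM in F4/80high and 14940, 14601 and 15469 CPM in F4/80low MAMs. Without Psap, which was itself called lower and was left out after its values were seen, the sums did not overlap. They were 11648, 10359.5 and 12185 CPM against 8470, 8300 and 8979 CPM. The 3 libraries of one group lay wholly above those of the other for 31 members, 23 higher and 8 lower, against 58.4% of all genes.

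**Figure D1:**
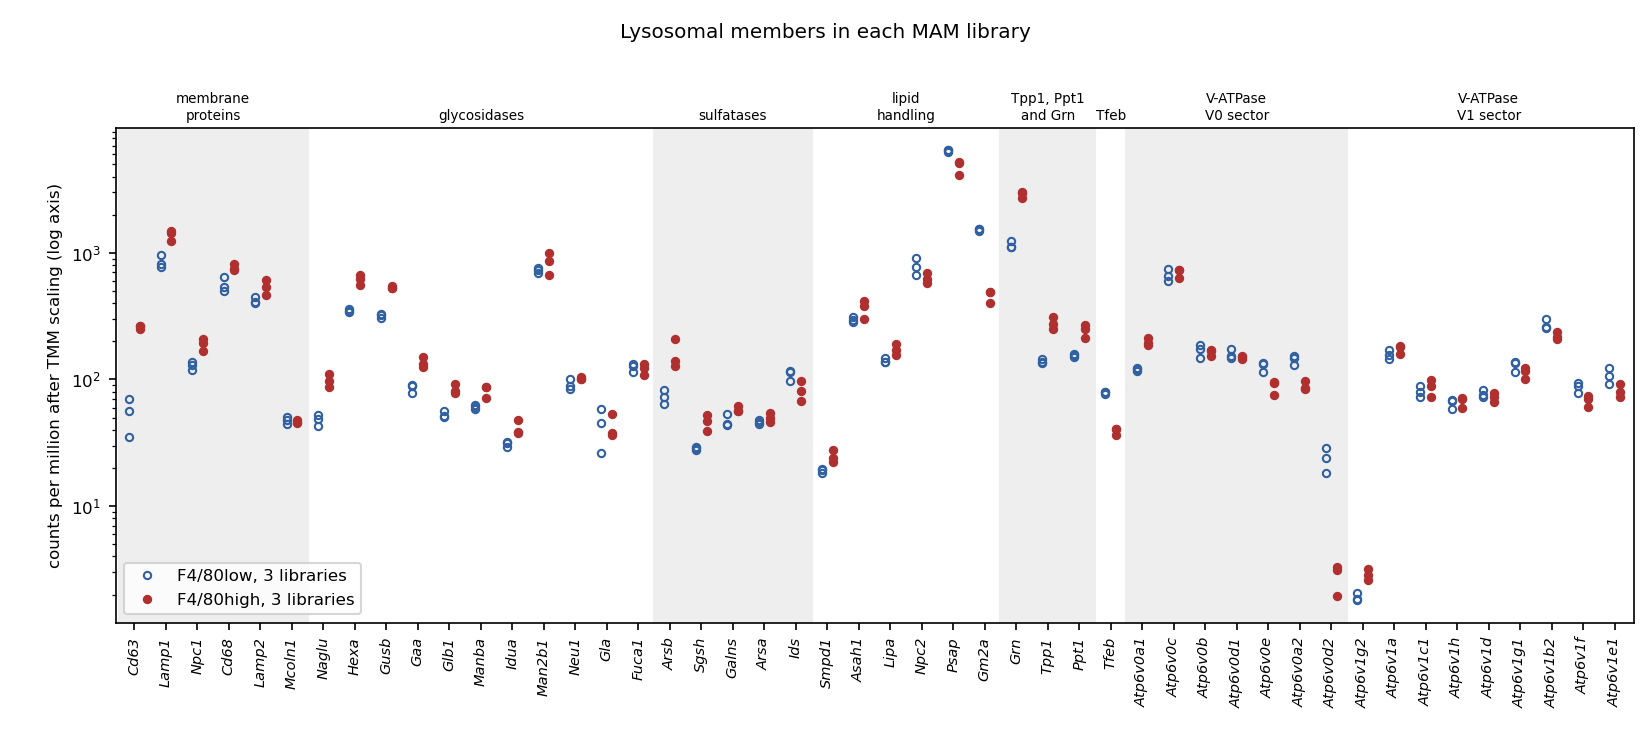
Level of each of the 48 members in each MAM library, in CPM after TMM scaling on a log axis, grouped by role and ordered within a role by the change. Open blue points are the 3 F4/80low libraries and filled red points the 3 F4/80high libraries. Psap has the highest points, at 6301 CPM or more in F4/80low MAMs, and Atp6v0d2 drops from 18.4 to 28.9 CPM in F4/80low MAMs to 1.95 to 3.28 CPM in F4/80high MAMs.

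The lysosomal membrane proteins were called higher in F4/80high MAMs in 5 of 6 cases, 83.3% called against 54.9% of all genes. Cd63, a tetraspanin of late endosomes, lysosomes and exosomes (chromosome 10, 128731528 to 128748709, plus strand, GRCm39), was the member with the largest increase. It measured 265, 249 and 263 CPM in the F4/80high libraries and 69.6, 35.1 and 56.8 CPM in the F4/80low libraries. The groups were far apart, at 4.81-fold, with a log2 fold change of 2.27 ± 0.22 (SE, n = 3 libraries per group, adjusted p = 8.66e-05 by edgeR). Lamp1, the major glycoprotein of the lysosomal membrane (chromosome 8, 13209121 to 13227360, plus strand), had 1433, 1249 and 1485 CPM in F4/80high MAMs against 816, 774 and 955 CPM in F4/80low MAMs. Every F4/80high library was above every F4/80low library, and the fold was 1.64, with a log2 fold change of 0.71 ± 0.12. Up to 2574 of the 5213 exon bases of Lamp1 lie inside other annotated genes, so its counts are uncertain. Cd68, a heavily glycosylated relative of the Lamp proteins that marks macrophages, had the highest level per length among these members. Its level was 732, 752 and 816 CPM against 499, 537 and 645 CPM, a log2 fold change of 0.45 ± 0.11. Lamp2, which also serves chaperone-mediated autophagy, and Npc1, which exports cholesterol from the lysosome, had log2 fold changes of 0.37 and 0.55 and were called higher. Mcoln1, a cation channel that releases lysosomal calcium, averaged 46.4 ± 1.37 CPM (SD, n = 3) in F4/80high and 47.9 ± 2.98 CPM in F4/80low MAMs and was not called. The 6 genes together had 3189 ± 251 CPM against 2057 ± 194 CPM.

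The glycosidases, which strip sugars from glycoproteins, glycolipids and glycosaminoglycans, had 7 of 11 members called higher and none called lower. This was 63.6% called, against 54.9% of all genes. The summed level of the glycosidases was 2713, 2407 and 2981 CPM in F4/80high MAMs. The sums were nearly equal in the F4/80low libraries, at 1933, 1934 and 1939 CPM. Naglu, which removes N-acetylglucosamine from heparan sulfate, had the largest change among them. Its level was 96.6, 86.8 and 109.7 CPM in F4/80high and 48.4, 43.1 and 52.8 CPM in F4/80low MAMs, and the log2 fold change was 1.02 ± 0.11. The groups did not overlap and differed 2.03-fold. Hexa, the alpha subunit of beta-hexosaminidase, had the highest level per length of the glycosidases, with 621, 561 and 672 CPM against 344, 349 and 362 CPM. Gusb, beta-glucuronidase, was at 526, 528 and 549 CPM against 306, 325 and 327 CPM. Both enzymes stood clearly apart between the groups, with log2 fold changes of 0.81 ± 0.09 for Hexa and 0.74 ± 0.08 for Gusb.

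Gaa, the acid alpha-glucosidase that degrades glycogen, was at 125, 133 and 151 CPM in the F4/80high libraries and at 88.9, 89.6 and 78.3 CPM in the F4/80low libraries. Glb1, the acid beta-galactosidase, was lower in level and moved about as much, with 81.6, 77.7 and 91.9 CPM against 56.6, 51.3 and 50.7 CPM. The log2 fold changes were 0.67 ± 0.10 for Gaa and 0.66 ± 0.09 for Glb1, again without overlap of the groups. Manba and Idua, which act on beta-mannosides and on iduronic acid residues, were called higher at 0.44 and 0.42. The other glycosidases, Man2b1, Neu1, Gla and Fuca1, had log2 fold changes between -0.04 and 0.21 and were not called. Man2b1 was called higher without F4/80high replicate 2, at 0.35 (adjusted p = 0.0336 by edgeR), and Neu1 without F4/80low replicate 3 (adjusted p = 0.0704). Gla, alpha-galactosidase A, varied more than any other member among the F4/80low libraries, with a coefficient of variation of 36.9%, where the median member had 7.54%.

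The sulfatases, which remove sulfate groups from glycosaminoglycans and sulfolipids, had 3 of 5 members called higher and 1 called lower. This was 80% called, against 54.9% of all genes. Arsb (chromosome 13, 93907903 to 94079528, plus strand), the arylsulfatase that acts on dermatan and chondroitin sulfate, was at 141, 129 and 209 CPM in F4/80high MAMs. In F4/80low MAMs it was at 82.4, 73.0 and 63.5 CPM. The change was 2.19-fold, with a log2 fold change of 1.13 ± 0.19 with a wider error than those of Naglu or Hexa, and the third F4/80high library was well above the other two. Sgsh, the heparan sulfate sulfamidase, was at 47.0, 39.3 and 52.4 CPM against 29.1, 28.7 and 27.8 CPM, a log2 fold change of 0.70 ± 0.11. Galns, which acts on keratan and chondroitin sulfate, was called higher at 0.30 ± 0.10, but had an adjusted p of 0.115 to 0.125 by edgeR when F4/80high replicate 1, F4/80low replicate 1 or F4/80low replicate 2 was left out. Arsa, which acts on sulfatide, was not called (50.1 ± 4.09 against 46.1 ± 1.60 CPM). Ids, the iduronate sulfatase that acts before Idua, went the other way, with 81.4, 67.4 and 97.84 CPM in F4/80high and 114, 116 and 97.77 CPM in F4/80low MAMs. The groups met at one library each, and its log2 fold change of -0.41 ± 0.14 was called at an adjusted p of 0.0394 by edgeR and had one of 0.107 without F4/80low replicate 1 and 0.106 without F4/80low replicate 2.

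Tpp1, Ppt1 and Grn were all called higher in F4/80high MAMs, as were 27.8% of all genes. Tpp1, Ppt1 and Grn summed to 3423 ± 203 CPM there against 1454 ± 78.4 CPM in F4/80low MAMs. Grn (chromosome 11, 102321141 to 102327874, plus strand) encodes progranulin, a secreted and lysosomal protein that is cut into granulins. Its level was 3034, 2727 and 2942 CPM in F4/80high and 1109, 1121 and 1248 CPM in F4/80low MAMs. This was a 2.50-fold difference, with a log2 fold change of 1.32 ± 0.10 (adjusted p = 2.41e-05 by edgeR), in a gene that ranked second of the members per length in F4/80high MAMs. Up to 1285 of the 3885 exon bases of Grn lie inside other annotated genes, so its counts could hold reads of them. Tpp1, a tripeptidyl peptidase, was at 274, 251 and 313 CPM against 137, 134 and 146 CPM, a log2 fold change of 1.01 ± 0.10. Ppt1, which removes palmitate from proteins, had a log2 fold change of 0.65 ± 0.10.

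The lipid hydrolases and their activator and transfer proteins split, with 3 called higher and 3 called lower (100% called, against 54.9% of all genes). Those called higher were hydrolases: Smpd1, acid sphingomyelinase, at 0.38, Asah1, acid ceramidase, at 0.30, and Lipa, the acid lipase that frees cholesterol from its esters, at 0.29. The call on Asah1 had an adjusted p of 0.0731 by edgeR and did not hold without F4/80high replicate 1 or 3 or without any one F4/80low library, where the adjusted p was between 0.117 and 0.210. That on Lipa did not hold without F4/80low replicate 1, with an adjusted p of 0.114 by edgeR.

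Those called lower carry no catalytic activity of their own. Gm2a, the activator that lifts GM2 ganglioside out of the membrane for hexosaminidase A (chromosome 11, 54988883 to 55003855, plus strand), had 489, 403 and 487 CPM in F4/80high and 1539, 1536 and 1480.15 CPM in F4/80low MAMs. It was thus 3.30-fold lower, with a log2 fold change of -1.72 ± 0.11 (adjusted p = 8.72e-06 by edgeR), while Hexa, the subunit it works with, was higher. Psap, the precursor of the saposins, was the most abundant member per length in both groups, with 5263, 4155.5 and 5091 CPM against 6470.05, 6301 and 6489 CPM. The groups did not overlap, and the log2 fold change was -0.41 ± 0.12. Npc2, which hands cholesterol to Npc1, was at 692, 574 and 621 CPM against 773, 666 and 907 CPM, with overlapping groups and a log2 fold change of -0.31 ± 0.13. Its call, at an adjusted p of 0.0800 by edgeR, was lost with an adjusted p of 0.134 to 0.250 when F4/80high replicate 2 or 3 or F4/80low replicate 1 or 3 was left out. Psap and Gm2a carried the sum of these 6 genes, which was 6487 ± 764 CPM in F4/80high and 9175 ± 210 CPM in F4/80low MAMs.

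**Figure D2:**
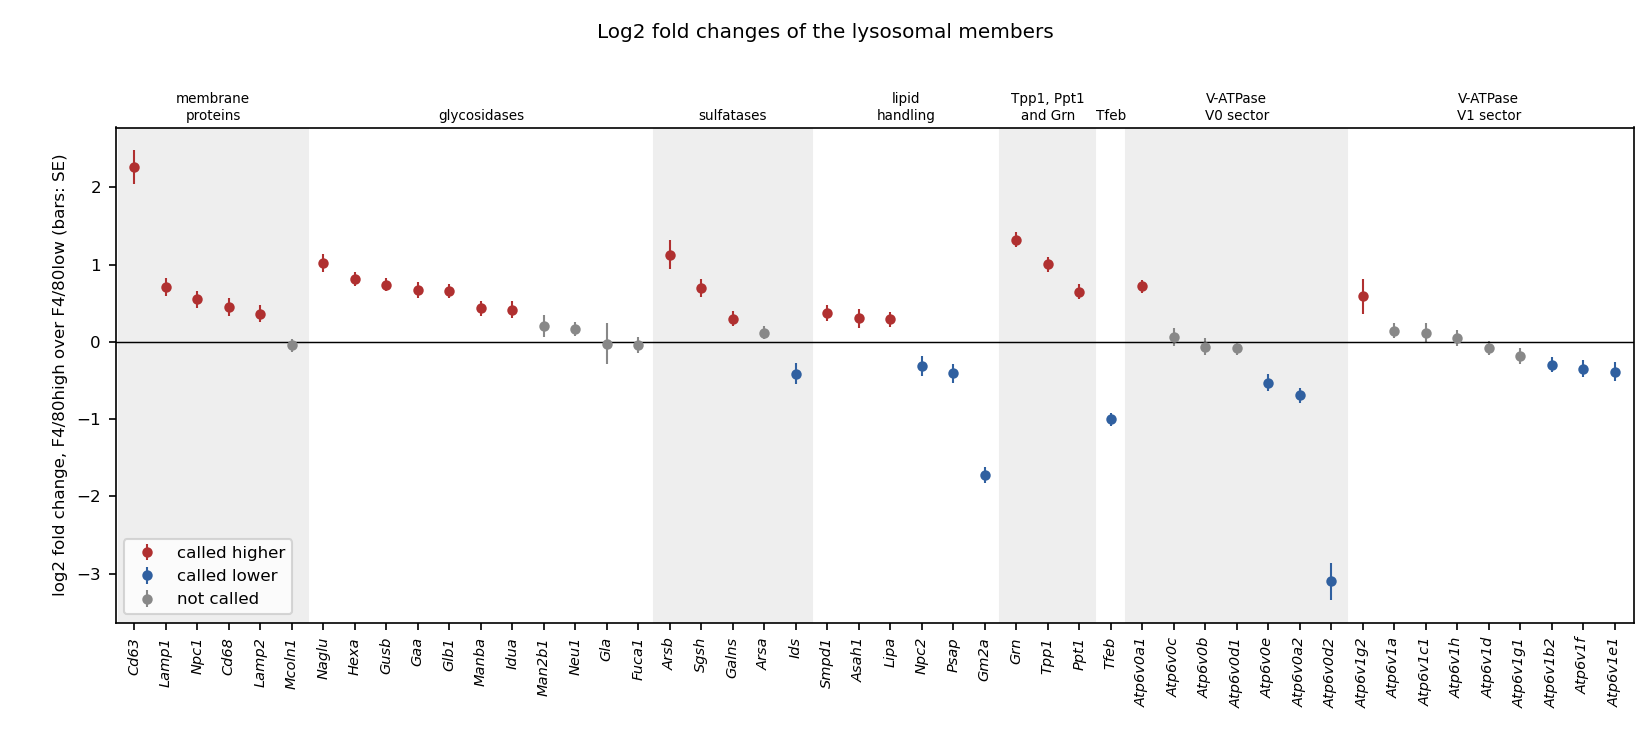
Log2 fold change of F4/80high over F4/80low MAMs for each member, with its standard error as a bar, grouped by role. Red points are called higher, blue points called lower and gray points not called at an adjusted p under 0.1. Cd63 at 2.27 and Atp6v0d2 at -3.10 are the extremes, and no glycosidase lies among the blue points.

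**Figure D3:**
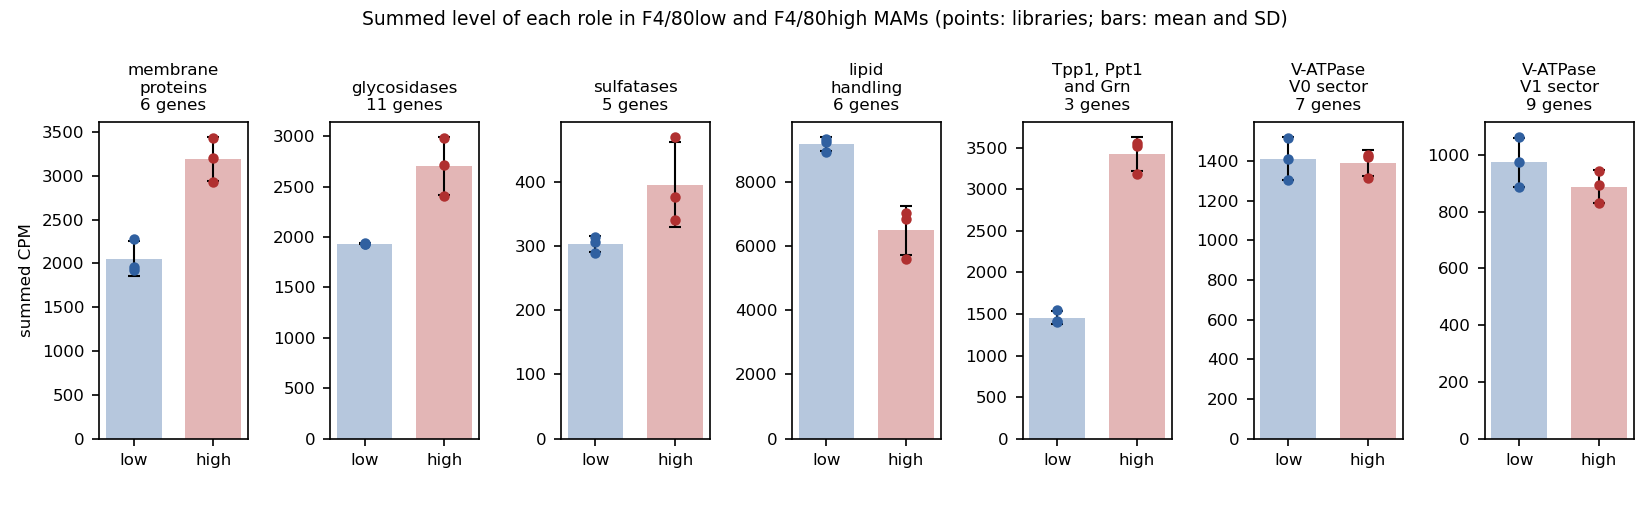
Summed CPM of the members of each role in F4/80low and F4/80high MAMs, with a point for each library, bars at the mean and error bars of 1 SD (n = 3). The sums of the membrane proteins, glycosidases, sulfatases and of Tpp1, Ppt1 and Grn are higher in each F4/80high library than in any F4/80low library, the lipid-handling sum is lower, and the points of both V-ATPase sectors overlap between the groups.

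Subunits of the V-ATPase were measured by 16 members, 7 of the V0 and 9 of the V1 sector, and their sum did not separate the groups, at 2373, 2317 and 2144 CPM in F4/80high and 2386, 2191 and 2580 CPM in F4/80low MAMs. The V0 sector had 1 member called higher and 3 called lower, 57.1% against 54.9% of all genes. Atp6v0d2 (chromosome 4, 19876838 to 19922614, minus strand), a form of the d subunit known from osteoclasts and some macrophages, had 3.11, 1.95 and 3.28 CPM in F4/80high against 28.9, 18.4 and 24.1 CPM in F4/80low MAMs. It was 8.57-fold lower, the largest decrease among the members, with a log2 fold change of -3.10 ± 0.24 (adjusted p = 2.99e-05 by edgeR). Atp6v0d1, the widely expressed form, was at 150 ± 3.68 CPM (SD, n = 3) against 159 ± 14.1 CPM and was not called.

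The a subunit, which anchors the pump and differs between membranes of the cell, showed the opposite movement of different forms. Atp6v0a1 was at 193, 187 and 213 CPM in F4/80high MAMs and at 116, 120.2 and 124 CPM in F4/80low MAMs. Atp6v0a2, known from the Golgi, was at 84.0, 86.1 and 96.8 CPM against 146, 154 and 129.6 CPM. Neither pair of groups overlapped, with log2 fold changes of 0.72 ± 0.08 for Atp6v0a1 and -0.69 ± 0.10 for Atp6v0a2. A further form, Tcirg1, is no member by its symbol, stood on a list of accessory genes and was named after its values were seen. It was at 463, 463 and 474 CPM against 564, 553 and 592 CPM, a log2 fold change of -0.29 ± 0.08, and was called lower. Per kilobase of merged exons, Tcirg1 made up 64.4% ± 1.30 (SD, n = 3) of the summed a subunit level in F4/80high and 69.6% ± 1.66 in F4/80low MAMs. Merged exons can be longer than the transcripts in use, so shares between genes are approximate. Atp6v0a1 made up 23.0% ± 0.83 against 12.4% ± 0.33 and Atp6v0a2 12.6% ± 0.55 against 18.0% ± 1.78. Atp6v0d2 made up 3.01% ± 0.81 of the summed d subunit level in F4/80high and 19.9% ± 3.55 in F4/80low MAMs. None of these shares overlapped between the groups.

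**Figure D4:**
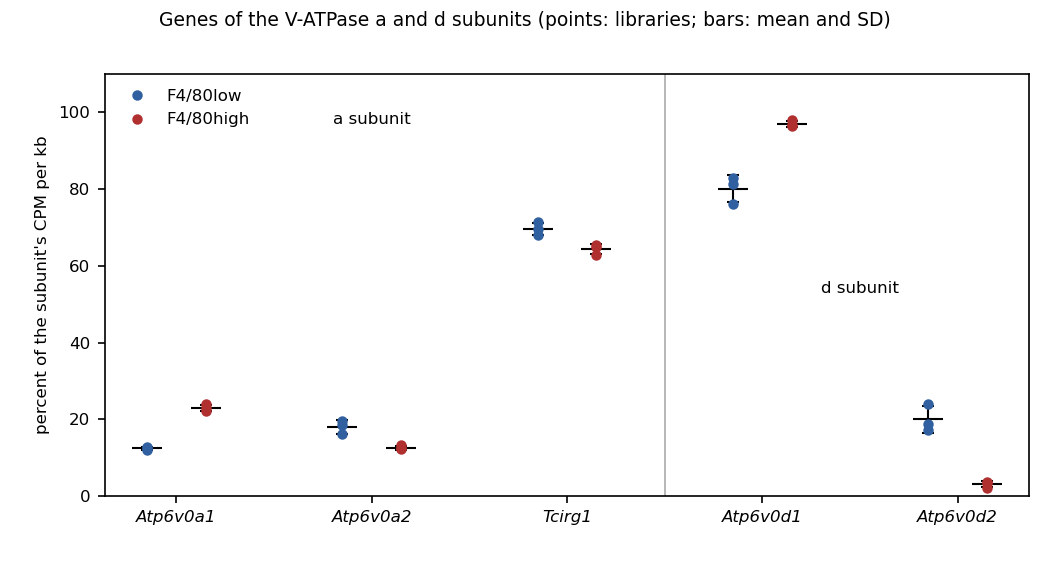
Share of each gene in the summed CPM per kilobase of exon of the V-ATPase a subunit (Atp6v0a1, Atp6v0a2 and Tcirg1) and d subunit (Atp6v0d1 and Atp6v0d2), in percent, with a point for each library and black bars at the mean ± SD (n = 3). Atp6v0a1 lies near 23.0% in F4/80high MAMs and 12.4% in F4/80low MAMs, and Atp6v0d2 at 3.01% in F4/80high against 19.9% in F4/80low MAMs.

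Of the remaining V0 members, Atp6v0e was called lower, at 93.8, 94.9 and 75.7 CPM against 134, 115 and 132 CPM, with a log2 fold change of -0.53 ± 0.11. Atp6v0c, the proteolipid of the rotating ring and the V-ATPase gene with the highest level per length, was at 735, 732 and 628 CPM against 659, 598 and 746 CPM. The groups overlapped, and neither Atp6v0c nor Atp6v0b, the other ring subunit measured, was called. Of the exon bases of Atp6v0b, 55.1% lie inside another annotated gene, so its counts are uncertain.

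In the V1 sector, 3 members were called lower by less than 0.40 on the log2 scale and 1 was called higher. This was 44.4% called, against 54.9% of all genes. Atp6v1f, the V1 gene with the highest level per length, had 74.3, 70.4 and 60.8 CPM in F4/80high and 88.5, 78.6 and 93.9 CPM in F4/80low MAMs. Atp6v1b2, the form of the nucleotide-binding B subunit found in most tissues, had 237, 217 and 207 CPM against 261, 253 and 299 CPM. Both were lower without overlap, with log2 fold changes of -0.35 ± 0.11 and -0.30 ± 0.10. Atp6v1e1, of the peripheral stalk, was at 92.5, 79.8 and 73.2 CPM against 106, 92.2 and 122 CPM, and its groups overlapped by a narrow margin. Of the 6958 exon bases of Atp6v1e1, 2819 lie inside another annotated gene, so its counts are uncertain. The calls on Atp6v1b2 and Atp6v1e1 were lost without F4/80low replicate 3, with adjusted p-values of 0.119 and 0.116 by edgeR. Atp6v1g2 was called higher at 0.59 ± 0.22, at a level of only 2.89 ± 0.29 CPM against 1.91 ± 0.14 CPM, with an adjusted p of 0.0597 by edgeR that became 0.159 without F4/80high replicate 1, 0.131 without F4/80low replicate 2 and 0.132 without F4/80low replicate 3. Atp6v1a, the catalytic subunit, and Atp6v1c1, Atp6v1d, Atp6v1g1 and Atp6v1h had log2 fold changes between -0.18 and 0.15 and were not called, although Atp6v1g1 was called lower without F4/80low replicate 2 (adjusted p = 0.0949 by edgeR).

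Tfeb (chromosome 17, 48047837 to 48103348, plus strand) was at 40.3, 36.6 and 40.5 CPM in F4/80high and at 76.7, 79.7 and 78.9 CPM in F4/80low MAMs. Its transcript was 2.00-fold lower in F4/80high MAMs, with a log2 fold change of -1.00 ± 0.08 (adjusted p = 3.21e-05 by edgeR), while 23 members were higher. Transcript levels do not show how much of the protein is in the nucleus. Its relatives moved otherwise: Tfe3 was at 145, 141 and 161 CPM against 121, 129 and 133 CPM (log2 fold change 0.22 ± 0.09, called higher), Tfec had a log2 fold change of 0.54 ± 0.16 and was called higher, and Mitf was at 34.4, 27.0 and 34.9 CPM against 29.4, 29.6 and 39.3 CPM and was not called. Tfe3 and Mitf were named after their values were seen.

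The promoter sequences of the members were searched for TCACGTG on either strand, the core of the element that Tfeb and its relatives bind, which contains the E-box CACGTG. RefSeq promoters, of 250 bases before to 50 bases after a start site in GRCm38.p6, were given for 39 of the 48 members. TCACGTG was present in 12 of the 39 (30.8%) and in 1160 of 27025 genes with a promoter (4.29%), and the shorter CACGTG in the same 12 and in 8.09% of all. The 27025 were all genes with a promoter given, whether or not they were measured in MAMs. Among the members, TCACGTG was found in 5 of 20 called higher, 1 of 8 called lower and 6 of 11 not called. A match is a description of the letters and not a measured binding site. The windows of the 6 called members, and of the uncalled Mcoln1 and Gla for comparison, are shown 5′ to 3′ on the strand of the gene, with the motif in capitals.
Naglu: caaccttcaggTCACGTGgcccgaggtcg
Lamp1: agggcaagataTCACGTGgtccagcgccc
Sgsh: ggcctgccgtgCACGTGAccgtggggagc
Gaa: tttctgtgcgaTCACGTGtttgactctga
Glb1: ctgcttctgagTCACGTGgcctacagagg
Atp6v0e: tagcgcgccgaTCACGTGagcctctgttg
Mcoln1: ggtcgcgcttgTCACGTGttcagttcagg
Gla: taagcgattgaTCACGTGagcatctacgt
In GRCm38.p6, the windows lie at chr11:101070009-101070037 (plus strand) for Naglu, chr8:13159088-13159116 (plus) for Lamp1, chr11:119355522-119355550 (minus) for Sgsh, chr11:119267811-119267839 (plus) for Gaa, chr9:114401018-114401046 (plus) for Glb1, chr17:26676387-26676415 (plus) for Atp6v0e, chr8:3500436-3500464 (plus) for Mcoln1 and chrX:134601216-134601244 (minus) for Gla. The motif begins 74 bases before the start site in Naglu, 62 in Lamp1, 29 in Sgsh, 141 in Gaa, 49 in Glb1, 72 in Mcoln1 and 228 in Gla, and 2 bases after it in Atp6v0e. In Sgsh it is on the other strand and reads CACGTGA. Naglu, Lamp1, Sgsh, Gaa and Glb1 were called higher with log2 fold changes of 0.66 to 1.02, whereas Gla and Mcoln1, with the same letters, were at -0.02 and -0.05.

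Other genes of the same pathways, on lists written by hand, were counted in the same way. Of 46 measured further lysosomal enzymes and membrane proteins, 20 were called higher and 10 lower, 65.2% against 54.9% of all genes. Their median log2 fold change was 0.11. Galc, which degrades galactosylceramide, was at 91.1 ± 10.2 against 19.1 ± 2.33 CPM, and Hgsnat, which acetylates heparan sulfate before Naglu acts, at 158 ± 11.3 against 44.2 ± 7.12 CPM. In the other direction, Acp5, the tartrate-resistant acid phosphatase, was at 69.2 ± 4.50 against 273 ± 37.5 CPM and Plbd1, a phospholipase B-like protein, at 253 ± 34.5 against 995 ± 116 CPM. Of 14 cathepsins and legumain, 6 were higher and 3 lower, 64.3% against 54.9% of all genes. Ctsf, at 14.3 ± 5.21 against 2.10 ± 0.30 CPM, and Lgmn, the asparaginyl endopeptidase legumain, at 3064 ± 219 against 888 ± 155 CPM, led the increases. Ctsk, a collagen-degrading protease best known from osteoclasts, as are Acp5 and Atp6v0d2, fell from 228 ± 63.6 to 3.93 ± 1.72 CPM, and Ctsw from 3.11 ± 2.24 to 1.03 ± 0.70 CPM with an adjusted p of 0.0996 by edgeR.

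The same was done for genes that assemble or control the pump and the pathway. Of 11 measured V-ATPase accessory and assembly genes, 3 were higher and 3 lower, 54.5% against 54.9% of all genes, with a median log2 fold change of 0.02. Dmxl1 and Vma21, which help to assemble the pump, were higher at 0.42 and 0.32, while Rogdi, which works with Dmxl1, and Ncoa7, which binds the pump, were lower at -1.56 and -0.62. Of 23 genes of Tfeb relatives and lysosomal mTORC1 control, 9 were higher and 3 lower, 52.2% against 54.9% of all genes. Tbc1d7, of the complex that restrains mTORC1, had the largest increase at 0.68. Rragd, a GTPase gene reported as a target of Tfeb family factors, and Slc38a9, the arginine sensor of the lysosomal membrane, had the largest decreases at -1.62 and -0.61, with Rragd below 1 CPM on average in both groups. Of 14 genes of mannose 6-phosphate tagging and lysosomal sorting, 7 were higher and 2 lower, 64.3% against 54.9% of all genes. Sumf2, a relative of the factor that activates sulfatases, and Gnptg, the gamma subunit of the tagging enzyme, were higher at 0.76 and 0.56. Igf2r, the large mannose 6-phosphate receptor, and Gnptab, which encodes the catalytic subunits of the tagging enzyme, were lower at -0.86 and -0.43.

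In the lymphocytes, the same members were compared among sorted populations of one fit of 12 libraries, and 47 of the 48 were tested, since Atp6v0d2 did not pass the filter on low counts. Psap and Arsb had the highest levels per length in each of the 4 populations. Cd68 was at no more than 9.08 CPM on average in any population, and Cd63 at no more than 0.49 CPM outside MFL ILC1, where it was at 18.2 ± 5.17 CPM (SD, n = 3). Levels were not compared between the MAM and lymphocyte tables, which were made by different library kits and scaled apart.

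MFL ILC1 had 2 members called lower than MFL NK cells and none called higher, while 3.06% of 13594 genes were called, 1.38% higher and 1.68% lower. At an unadjusted p under 0.05 there were 4 members, against 8.37% of all genes. The libraries of the populations did not overlap for 14 members, 6 higher and 8 lower, against 25.3% of all genes. Arsb was at 293, 236 and 223 CPM in MFL ILC1 and at 729.7, 486 and 507 CPM in MFL NK cells. All MFL ILC1 libraries were below all MFL NK libraries, and the level was 2.29-fold lower, with a log2 fold change of -1.20 ± 0.23 (adjusted p = 0.00564 by edgeR). Npc1 was at 44.5, 47.3 and 47.0 CPM against 99.6, 109.0 and 111 CPM, 2.30-fold lower, with a log2 fold change of -1.20 ± 0.29 (adjusted p = 0.0323 by edgeR). The replicates of Npc1 were close together, yet its adjusted p was 0.130 to 0.138 when any MFL ILC1 library or MFL NK replicate 2 or 3 was left out. Lamp1 was at 26.1, 72.2 and 41.4 CPM against 133, 101 and 96.2 CPM, with a log2 fold change of -1.24 ± 0.36 that missed the threshold at an adjusted p of 0.101 by edgeR. Alternatives placed the value on the other side, as given at the end. DESeq2 called Arsb, Npc1 and Lamp1 lower and Cd63 and Atp6v1g2 higher, where it called 2.87% of all genes lower and 2.79% higher. The median log2 fold change was -0.03 over the members and 0.01 over all genes.

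Genes listed as markers of other cells differed between these populations too. Of 5 measured T cell markers, 1 was higher in MFL ILC1, Cd3g, and the list summed to 247 to 681 CPM against 4.98 to 14.2 CPM in MFL NK cells. Of 7 tumor epithelium markers, only 2 were measured, and 1 was higher, Cdh1, with sums of 59.2 to 95.2 CPM against 0.147 to 2.53 CPM. Whether ILC1 themselves expressed Cd3g and Cdh1 was not tested. No marker of another cell type was called by edgeR in the comparisons that follow, although tumor epithelium markers summed to 23.8 to 51.5 CPM in LM CD49a+ and to at most 3.15 CPM in LM CD49a- NK cells, and hepatocyte markers to at most 6.35 CPM in LM CD49a- and to 18.7 to 141 CPM in MFL NK cells. Of 10 macrophage markers, only 2 were measured. Their sums were at most 13.4 CPM in LM CD49a+, at most 3.43 CPM in LM CD49a- and 9.40 to 41.6 CPM in MFL NK cells. The part of these cell types in the results was not tested.

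In LM, CD49a+ were compared with CD49a- NK cells, and edgeR called none of the 47 members. Among all genes it called 0.14%, 0.0662% higher and 0.0736% lower in LM CD49a+ NK cells, and 7 members had an unadjusted p under 0.05, against 11.6% of all genes. DESeq2 called 5, with Grn and Atp6v1g2 higher and Hexa, Atp6v0d1 and Tfeb lower in LM CD49a+ NK cells, and among all genes called 3.4% higher and 3.34% lower. Grn was at 39.1, 26.4 and 34.5 CPM in LM CD49a+ and at 0.446, 8.86 and 4.41 CPM in LM CD49a- NK cells. Every LM CD49a+ library was above every LM CD49a- library, as was so in either direction for 6 members and 9.82% of all genes, but the log2 fold change of 2.86 ± 0.82 had an adjusted p of 0.280 by edgeR. Between LM CD49a- and MFL NK cells, edgeR again called none of the 47 members, against 0.0662% of all genes higher and 0.00736% lower, and 6 had an unadjusted p under 0.05, against 6.72% of all genes. The libraries did not overlap for 8 members and for 16.2% of all genes. DESeq2 called Atp6v0d1 higher and Grn lower in LM CD49a- NK cells, and among all genes called 0.985% higher and 1.21% lower. This comparison shares its LM CD49a- libraries with the previous one and its MFL NK libraries with that of MFL ILC1, and site and tissue dissociation cannot be told apart in it. The median log2 fold changes were 0.17 over the members and 0.01 over all genes between the LM populations, and -0.26 and -0.09 between LM CD49a- and MFL NK cells. The first became 0.0246 without LM CD49a+ replicate 3, 0.0653 without LM CD49a+ replicate 2 and 0.277 without LM CD49a- replicate 2, and the second -0.118 without MFL NK replicate 1. Grn and the members that only DESeq2 called were named after their values were seen.

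**Figure D5:**
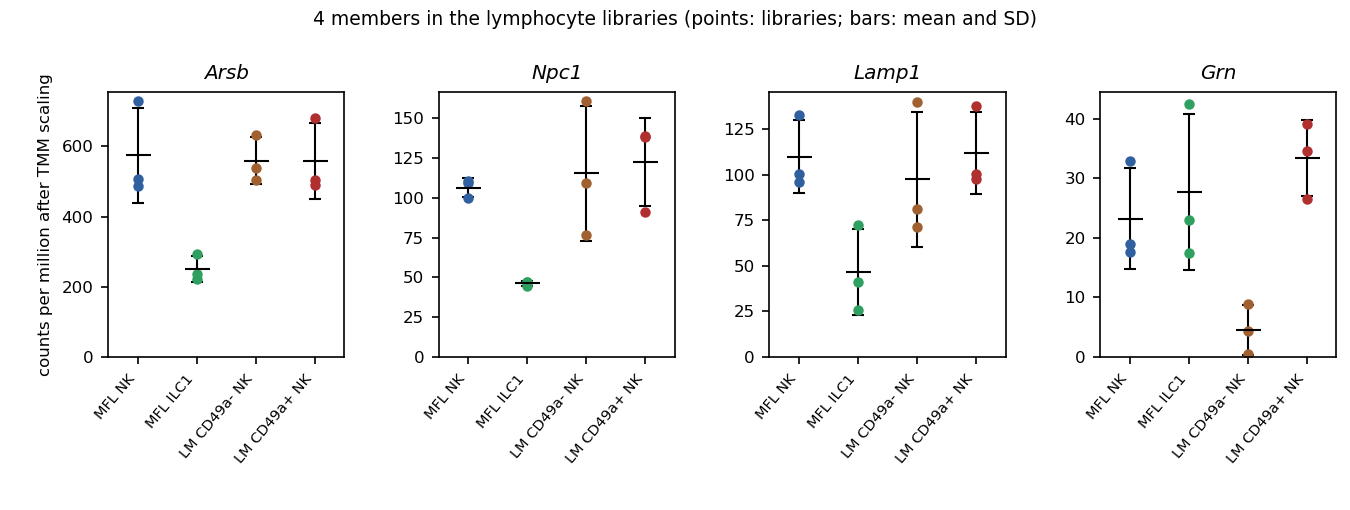
Level of Arsb, Npc1, Lamp1 and Grn in the 12 lymphocyte libraries, in CPM after TMM scaling, with a point for each library and black bars at the mean ± SD (n = 3). MFL ILC1 have the lowest Arsb (223 to 293 CPM) and Npc1 (44.5 to 47.3 CPM), and LM CD49a- NK cells the lowest Grn.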

How the data were processed

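RNA of sorted MAMs (6 libraries) and type 1 lymphocytes (12 libraries) was analyzed. Both tables hold estimated counts, not scaled by library, which the authors made with Trim Galore and Salmon, v1.10.0 for the MAMs and v1.5.0 for the lymphocytes, on GRCm39, per the submitters' processing notes. They were used as whole numbers. The strand setting and the filter that left 13759 genes in the MAM table, with a lowest gene total of 37, are not given in the sources used here. Genes were named and measured in length from GENCODE vM39, which held 13726 of the IDs of the MAM table. Of the 48 members, 30 share exon bases with another annotated gene, and their counts could hold reads of it.

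Counts were compared with edgeR v4.0.16 in R v4.3.3 (filterByExpr, TMM, quasi-likelihood test), in separate fits of the 6 MAM and the 12 lymphocyte libraries, with Benjamini-Hochberg adjustment over 13759 and 13594 genes. Calls were made at an adjusted p under 0.1. The SE of a log2 fold change is its size over the square root of F and is approximate. CPM were computed after TMM scaling, and levels per length are CPM per kilobase of merged exons. Alternatives were DESeq2 v1.42.0, its size factors in edgeR, other filters, an adjusted p under 0.05, a replicate block and leaving out each library. For the MAMs alone, limma-voom (limma v3.58.1) was a further alternative. The main edgeR test was tried on simulated counts with known changes, in the first comparison of the MAMs and of the lymphocytes. The other steps were not tested in this way. The members and gene lists were chosen with earlier results of these data known. All members could be named, with values in every library for the 12 with the largest increase, the 11 called lower, Lamp1, Tfeb and the member of each role with the highest level per length, and up to 2 genes per direction of each other list. Whether replicate numbers pair the libraries was not established, and the main fits did not pair them. Figures were drawn with matplotlib v3.10.9 (Python v3.11.15). Some marker results of the lymphocytes are not reported here.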

Additional observations from a re-analysis of the deposited data

How the results depend on the processing

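Between F4/80high and F4/80low MAMs, the members called stayed between 20 and 24 higher and between 8 and 11 lower under all alternatives, and 26 of the 34 called members were called in every one. The other 8 (Asah1, Atp6v1b2, Atp6v1e1, Atp6v1g2, Galns, Ids, Lipa and Npc2) were lost when some single library was left out, and Asah1, Atp6v1g2 and Npc2 also at an adjusted p under 0.05. Called only with one library left out were Man2b1, Neu1 and Atp6v1g1. The count of V-ATPase members called higher fell from 2 to 1 without F4/80high replicate 1, F4/80low replicate 2 or F4/80low replicate 3. Uncalled members near zero changed sign: the log2 fold change of Gla was 0.0315 with limma-voom and 0.0287 with the replicate block. With single libraries left out it ranged from -0.279 to 0.252 for Gla, from -0.114 to 0.0428 for Fuca1, from -0.151 to 0.0162 for Atp6v0b, from -0.00965 to 0.153 for Atp6v0c and from -0.0208 to 0.123 for Atp6v1h.

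Libraries of the same replicate number deviated together with correlations of 0.0134 to 0.251 in MAMs and of -0.0943 to 0.061 in lymphocytes, too weak to pair them. With the replicate block the MAM counts of members were again 23 and 11, and among lymphocytes Lamp1 became called in MFL ILC1 against MFL NK cells (-1.35, adjusted p = 0.0573 by edgeR).

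In the lymphocytes, where 13594 genes gave few calls, the counts moved. With DESeq2, MFL ILC1 against MFL NK cells had 2 members higher, LM CD49a+ against LM CD49a- NK cells 2 higher and 3 lower, and LM CD49a- against MFL NK cells 1 higher and 1 lower. Over all genes, DESeq2 called 375 higher and 386 lower, 468 and 459, and 139 and 171 in these comparisons, where edgeR called 188 and 228, 9 and 10, and 9 and 1. Without a filter on low counts, 1 member, Grn, was higher in LM CD49a+ than LM CD49a- NK cells, among 104 of all genes. With one library left out, members called lower in MFL ILC1 were 1 to 2, those higher in LM CD49a+ than LM CD49a- NK cells 0 to 1 and those lower in LM CD49a- than MFL NK cells 0 to 1, in both cases Galns without LM CD49a- replicate 3, where 210 and 90 of all genes were called in those directions. Lamp1 in MFL ILC1 was called with DESeq2 (adjusted p = 0.0486), without a filter (0.0233) and without MFL ILC1 replicate 2 (0.0258). The median of members in MFL ILC1 against MFL NK cells turned to 0.000109 with DESeq2 and ranged from -0.171 to 0.0589 with one library left out. The causes were not tested.

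Pairs of lymphocyte replicates differed by 24.0 to 185 times the counting noise (chi-square per degree of freedom) and pairs of MAM replicates by 22.9 to 47.0 times. Members without a call are not shown to be equal.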
